A study of Mus musculus with 2 samples.

Results

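Mitotic bone marrow stromal cells (mitotic BMSCs) are the stromal cells of E18.5 femoral marrow that the study placed in a cluster of their own. Members were the E18.5 cells with cluster number 5 in the study's list of BMSCs, found by their barcodes in the counts of the wild-type library. They numbered 231 of 1649 listed E18.5 BMSCs (14.0%, exact Clopper-Pearson 95% interval 12.4 to 15.8%), in a library of 5998 barcodes. The other 1418 listed BMSCs of the same library were 940 eBMSC-1 and 149 eBMSC-2 (the embryonic stromal populations), 202 OLCs-1 and 102 OLCs-2 (osteolineage cells), and 25 cells of the adult-enriched population aBMSC.

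The cells came from wild-type (WT) C57BL/6 embryos at E18.5, with no transgene, Cre or drug named for them. Femurs were crushed and digested with collagenase type 4, and lineage-committed haematopoietic cells were removed with magnetic beads. The rest was profiled by BD Rhapsody whole-transcriptome sequencing, which counts RNA molecules by unique molecular identifiers (UMIs). The study asked which haematopoietic and niche cells make up fetal marrow. The number of embryos behind the library is not given in the sources used here, and with 1 wild-type library the cells are not replicates, so no test was made. Intervals throughout are exact 95% intervals that cover counting error only. The cluster was made from the expression of these same cells, so its contrast with other cells is a description. Per the study's methods, genes of the cell cycle term were taken out of the variable genes before the principal components were computed.

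A dividing cell copies its DNA in S phase and then separates the copies in mitosis. The E2F transcription factors switch on genes for replication before and during S phase, and the MuvB complex with B-Myb and FoxM1 switches on another set for mitosis, through promoter elements called CHR. Fetal marrow stroma grows while the marrow cavity is being opened, and its mesenchymal cells include fibroblast-like cells, bone-forming cells and cells that support haematopoiesis.

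The members held 680 to 10576 UMIs each (median 4077, with a median of 1969 genes), against a median of 3112 UMIs in the other BMSCs and 2927 in eBMSC-1. In all they held 976733 UMIs, against 4846535 in the other BMSCs. All 231 passed the filter of the study's methods. The doublet caller Scrublet marked 7 of 5998 barcodes (0.117%), too few for its threshold to have worked, and none of them was a member. A set of cells stood apart: 24 of the 231 members (10.4%, 6.77 to 15.1%) held at least 3 UMIs of 6 genes of Schwann cells and their precursors, a limit set after the data had been seen, and main values, as well as list counts below that change, are given with and without them.

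Most members held at least 1 of the 5 markers of the cluster. The cluster was made from the same cells, so this describes the label and does not test it. Mki67, the Ki-67 protein of proliferating cells (chromosome 7, 135689784 to 135716361 in GRCm38), had 842 UMIs in the members, or 862 counts per 1000000 UMIs (CPM, 805 to 922), in 82.3% of cells, against 53.4 CPM in 8.18% of the other BMSCs. Prc1, which bundles the microtubules of the central spindle (chromosome 7, 80294450 to 80316259), reached 809 CPM in 75.8% of members against 28.3 CPM in 5.29% of the others. The ratio of levels was 16.1 (14.0 to 18.6) for Mki67 and 28.6 (23.8 to 34.6) for Prc1. The other 3 markers had fewer UMIs. Plk1, a kinase that drives mitotic entry and spindle assembly (chromosome 7, 122159439 to 122169873), had 88 UMIs in 29.0% of members against 27 UMIs in 1.41% of the others. Cep55, needed for the final cut between daughter cells (chromosome 19, 38055011 to 38074423), had 60 UMIs in 21.2% against 14 UMIs in 0.846%. Nuf2, a subunit of the NDC80 complex that ties kinetochores to microtubules (chromosome 1, 169497934 to 169531464), had 119 UMIs in 36.8% against 28 UMIs in 1.76%.

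At least 1 of the 5 markers was found in 205 of 231 members (88.7%, 83.9 to 92.5%), and in 162 of 1418 other BMSCs (11.4%). With every cell drawn down to 1000 UMIs the shares were 70.5% and 5.32%, so the gap was also there at equal depth. Members differed in how many markers they showed: 26 held none, 31 held 1, 61 held 2, 57 held 3, 38 held 4 and 18 held all 5. The 26 without a marker were in large part the cells with Schwann genes, of which 10 of 24 (41.7%) held a marker against 195 of the other 207 members (94.2%). No listed class was free of these genes. Any marker was found in 6.04% of eBMSC-2, 8.83% of eBMSC-1, 12.7% of OLCs-2, 19.4% of listed chondrocytes and 21.8% of OLCs-1. Of the 25 aBMSC, 13 (52%) held a marker. The share was 22.2% in listed mural cells and 36.6% in listed endothelial cells (ECs). It was 56.2% in listed haematopoietic stem and progenitor cells (HSPCs) and 92.3% in listed erythroid cells. These class shares are at full depth, which differed between classes, with a median of 9188 UMIs in erythroid cells and 5997 in HSPCs. At 1000 UMIs per cell, erythroid cells were at 45.3% and HSPCs at 33.9%, below the 70.5% of members. The lowest share at full depth, that of eBMSC-2, came from 9 of 149 cells (2.80 to 11.2%). The median eBMSC-2 cell held 2978 UMIs. How much free RNA adds to any of these shares was not tested.

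Summed over 84 mitosis genes (kinetochore, mitotic kinases, spindle and condensin lists), members held 0 to 258 UMIs each with a median of 78, and other BMSCs 0 to 208 with a median of 2. At 1000 UMIs per cell, 211 of 227 members (93.0%, 88.8 to 95.9%) kept 3 or more mitosis UMIs, which left out 4 shallower members. The share was 12% (167 of 1392) in the other BMSCs, made up of 9.35% of eBMSC-1, 4.03% of eBMSC-2, 24.5% of OLCs-1, 13.4% of OLCs-2 and 12 of 15 aBMSC. The cluster thus held 211 of the 378 listed BMSCs (55.8%) at or above this limit, eBMSC-1 87 (23.0%) and OLCs-1 49 (13.0%). Stromal cells at this limit were therefore also found outside the cluster, most of all among eBMSC-1 by number and, of the 4 larger classes, OLCs-1 by share. How many lay outside depended on the limit. At 5 or more UMIs there were 203 members and 81 of 1392 other BMSCs (5.82%). Among the latter were 38 eBMSC-1 (4.08%), 29 OLCs-1 (14.5%) and 0 eBMSC-2. The listed chondrocytes, only part of that class, had 24.8%.

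**Figure D1:**
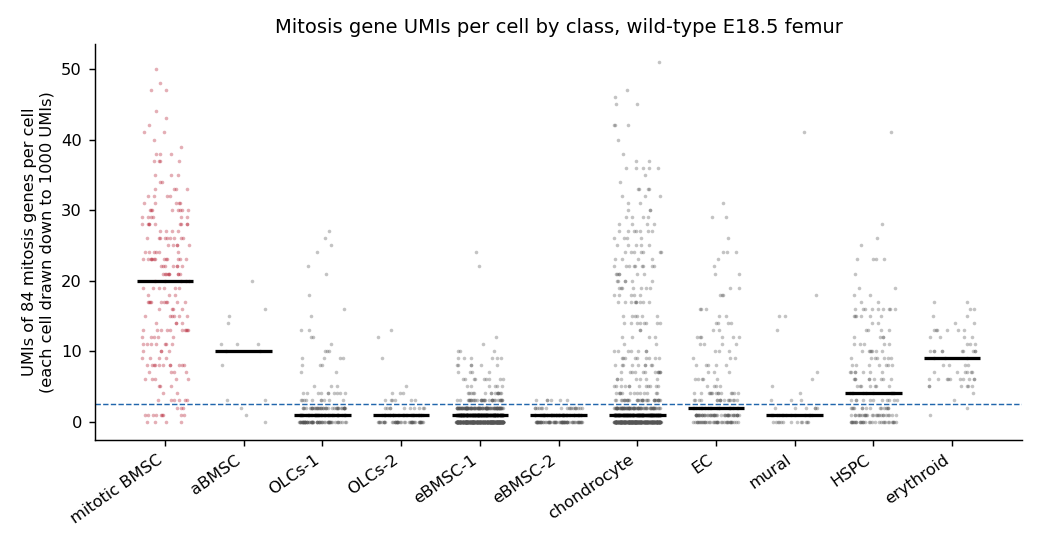
Each point is a cell of the wild-type E18.5 library drawn down to 1000 UMIs, placed by its UMIs of 84 mitosis genes (vertical axis) and its class in the study's list (horizontal axis). Black bars are medians and the dashed line separates cells with 3 or more UMIs from the rest. The 227 mitotic BMSCs have a median of 20 and run from 0 to 50, eBMSC-1, eBMSC-2, OLCs-1, OLCs-2 and chondrocytes each have a median of 1, and erythroid cells have 9.

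The mitosis genes made up 20194 CPM in the members and 1675 CPM in the other BMSCs, a ratio of 12.1 (11.8 to 12.4). Of 7178 genes with at least 100 UMIs over the listed BMSCs, 399 (5.56%) were at least 2-fold higher in the members and 350 (4.88%) at least 2-fold lower, with a median ratio of 0.992. The mitosis lists had 67 of 68 genes at least 2-fold higher, with a median of 16.1. Without the 24 cells with Schwann genes, 377 of 7122 genes (5.29%) were higher and 412 (5.78%) lower, and the mitosis lists again had 67 of 68 higher. These counts describe the cluster, which was named for its dividing cells.

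The spindle and cytokinesis list had the highest median ratio of the 4 mitosis lists, 22.0, with 22 of 22 genes at least 2-fold higher. Tpx2, which nucleates spindle microtubules, had 562 UMIs in the members against 173 in the others (16.1-fold, 13.6 to 19.2). Nusap1, a microtubule-binding protein of the spindle, was 29.9-fold higher (23.2 to 39.1). The largest ratio belonged to Esco2, which joins sister chromatids in S phase, with 134 UMIs against 17 (39.1-fold, 23.5 to 69.1).

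Mitotic kinases and checkpoint genes were all past 2-fold (15 of 15, median 16.2). Cdk1, the kinase that triggers mitosis, had 767 UMIs in 81.8% of members against 12.8% of the others (11.6-fold, 10.2 to 13.3). Birc5, the survivin subunit of the chromosomal passenger complex, was 16.6-fold higher (14.3 to 19.2), and its partners Incenp and Cdca8 (borealin) were 14.9-fold and 14.2-fold higher. Mastl, the kinase that holds off the phosphatase opposing Cdk1, had the largest ratio of the list, 37.8 (21.1 to 73.5), from 99 against 13 UMIs.

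Kinetochore and centromere genes passed 2-fold in 21 of 22 cases (median 11.7). Cenpf was 31.1-fold higher (24.5 to 39.8) and the kinetochore motor Cenpe 14.2-fold (11.6 to 17.5). Cenpa, the histone that marks centromeres, was 8.56-fold higher (7.24 to 10.1). Ndc80, partner of Nuf2, had 160 UMIs against 22 (36.1-fold, 23.0 to 59.2). Condensin and topoisomerase genes, which compact and untangle chromosomes, were higher in 9 of 9 cases (median 9.15). Top2a had 1715 UMIs in 84.4% of members (22.1-fold, 19.8 to 24.8), and the condensin core subunits Smc4 and Smc2 were 7.52-fold and 8.14-fold higher.

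Genes of S phase differed less. The 3 lists (replication licensing and fork, nucleotide synthesis, replication chromatin) made up 6075 CPM in the members and 2203 CPM in the others, a ratio of 2.76 (2.67 to 2.85), with 35 of 46 genes at least 2-fold higher and a median of 2.61. The lists were uneven inside. Among nucleotide synthesis genes (7 of 9 past 2-fold), the ribonucleotide reductase subunit Rrm2 was 8.82-fold higher (7.56 to 10.3) and thymidine kinase Tk1 11.4-fold (8.57 to 15.3), while the purine synthesis enzyme Paics was at 1.25 (1.11 to 1.41). Among replication genes (20 of 26), Clspn, which relays stalled-fork signals, was 7.64-fold higher (5.81 to 10.1) and DNA ligase Lig1 3.87-fold (3.31 to 4.51). Subunits of the MCM helicase stood lower, with Mcm5 at 2.40 (1.95 to 2.94), Mcm4 at 1.62 (1.37 to 1.91) and Mcm6 at 1.47 (1.25 to 1.74). Of the replication chromatin genes (8 of 11), the histone chaperone Asf1b was 17.9-fold higher (11.7 to 28.3) and the methyltransferase Ezh2 3.19-fold (2.68 to 3.80). At 1000 UMIs per cell, 3 or more S phase UMIs were found in 73.1% of members and 28.1% of the other BMSCs.

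**Figure D2:**
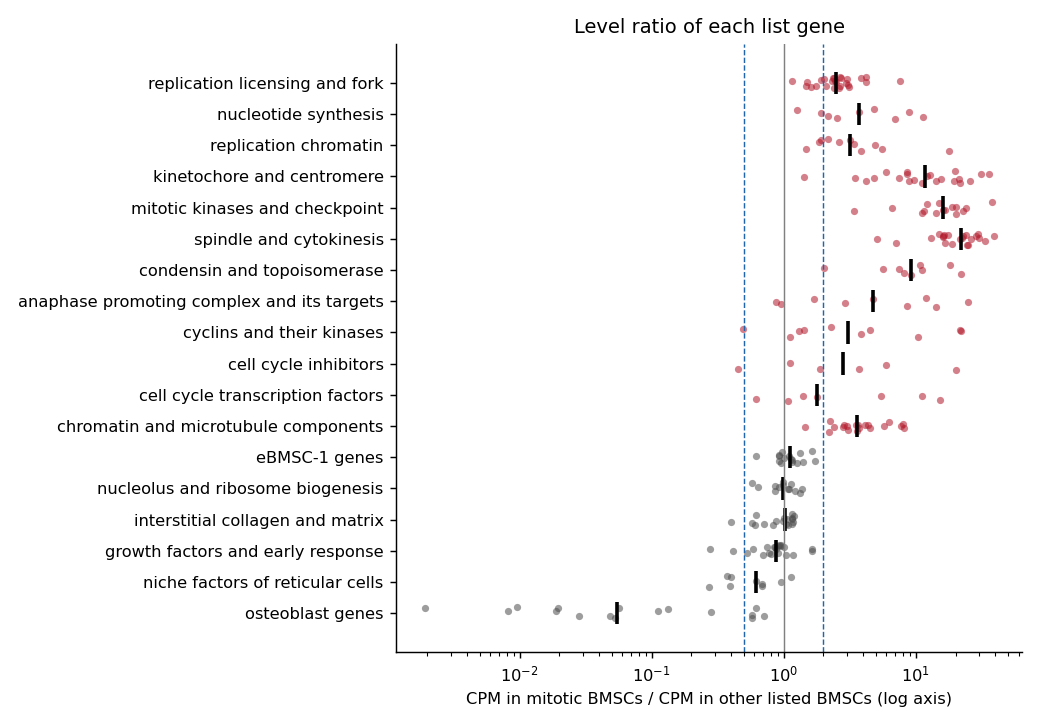
Each point is a gene with at least 100 UMIs over the listed BMSCs, placed by its CPM in the mitotic BMSCs divided by its CPM in the other listed BMSCs (horizontal log axis) within its list (vertical axis), red for cell cycle lists and grey for others. Black bars are list medians and dashed lines mark 2-fold. Medians run from 2.48 to 22.0 in the first 8 lists, and from 0.0549 in osteoblast genes to 1.11 in eBMSC-1 genes among the grey lists.

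Promoters are shown for genes that were high together in these cells, Prc1, Plk1 and the mitotic cyclin Ccnb2, with Mcm6 for the S phase set. They run from 250 bases before to 50 after the start, 5′ to 3′ on the strand of the gene, from RefSeq on GRCm38.p6. Capitals mark matches on either strand to 3 motifs. The CHR was searched as TTTGAA and, in a variant form, also as TTCGAA. The second motif was the CCAAT box, spelled as its name. The E2F motif was searched in 3 forms (TTTCCCGC or TTTGGCGC or TTTCGCGC).
Prc1 (chr7:80294201-80294500, plus strand): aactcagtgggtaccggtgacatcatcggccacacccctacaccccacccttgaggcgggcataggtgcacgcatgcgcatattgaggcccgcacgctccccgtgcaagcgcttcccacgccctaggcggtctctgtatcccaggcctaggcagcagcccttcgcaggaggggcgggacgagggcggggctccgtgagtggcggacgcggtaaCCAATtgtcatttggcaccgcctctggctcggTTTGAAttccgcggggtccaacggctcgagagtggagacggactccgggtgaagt
Plk1 (chr7:122159185-122159484, plus strand): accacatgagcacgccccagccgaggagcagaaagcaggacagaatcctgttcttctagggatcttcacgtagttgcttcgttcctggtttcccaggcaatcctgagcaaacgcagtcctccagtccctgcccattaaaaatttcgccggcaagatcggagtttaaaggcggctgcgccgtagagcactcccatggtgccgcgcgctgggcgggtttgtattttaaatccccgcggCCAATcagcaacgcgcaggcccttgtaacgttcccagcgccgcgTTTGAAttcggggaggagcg
Ccnb2 (chr9:70421505-70421804, minus strand): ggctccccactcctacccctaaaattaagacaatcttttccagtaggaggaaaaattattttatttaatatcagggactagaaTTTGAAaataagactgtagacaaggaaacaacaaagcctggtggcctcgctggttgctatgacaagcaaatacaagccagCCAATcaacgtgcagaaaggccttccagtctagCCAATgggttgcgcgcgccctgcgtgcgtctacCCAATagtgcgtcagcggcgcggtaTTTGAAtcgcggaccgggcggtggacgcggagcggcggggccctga
Mcm6 (chr1:128359656-128359955, minus strand): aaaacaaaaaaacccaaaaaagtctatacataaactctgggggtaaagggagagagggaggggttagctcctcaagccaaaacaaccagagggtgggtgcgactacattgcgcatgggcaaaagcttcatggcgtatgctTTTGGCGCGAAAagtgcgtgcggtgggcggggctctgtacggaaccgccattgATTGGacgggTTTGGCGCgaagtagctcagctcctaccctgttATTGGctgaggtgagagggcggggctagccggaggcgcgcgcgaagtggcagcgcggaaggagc

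Counted from the start site, the CHR letters begin at base -5 in Prc1 and at base 31 in Plk1, and at bases -167 and 5 in Ccnb2, which also has CCAAT matches at -87, -54 and -21. Mcm6 has 3 E2F matches, at -110, -106 and -47, of which the first 2 overlap, and no CHR match. Over the lists, CHR letters were found in 67.5% of 80 promoters of mitosis genes (72 of 84 genes matched by symbol), 16.7% of 54 promoters of S phase genes (47 of 55 genes) and 19.2% of all 32851 promoters. The E2F letters showed the other order, with 8.75%, 37.0% and 1.84%. CCAAT was found in 70.0%, 64.8% and 37.4%, and CHR together with CCAAT in 52.5%, 14.8% and 7.52%. The CHR letters were thus commoner in promoters of the mitosis lists than in those of the S phase lists. Matches were not compared with the ratio of each gene, and a match is a description of the sequence and not a binding site. Of the 10 genes looked at, 9 had a match to at least 1 of the 3 motifs and Nuf2 had none. The share of all promoters with any of the 3 was not computed. Ccnb1 had CCAAT matches but no CHR match, and Cep55 had CHR matches but no CCAAT match.

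Around this core, most regulators of the cycle were also higher. Ccna2, the cyclin of S phase and G2, had 726 UMIs in 81.0% of members against 4.80% of the others (21.6-fold, 18.2 to 25.7), and the mitotic cyclins Ccnb1 and Ccnb2 were 22.1-fold (17.0 to 29.0) and 10.4-fold (8.26 to 13.2) higher. The D cyclins, which act in G1, were not: Ccnd1 was at 1.11 (0.944 to 1.29) and Ccnd2 had 258 against 2607 UMIs (0.491, 0.430 to 0.558). Against eBMSC-1 alone Ccnd2 was at 0.437. Of the 10 cyclins and cyclin-dependent kinases with enough UMIs, 6 were at least 2-fold higher and 1 lower.

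The anaphase-promoting complex marks cyclins for destruction, and 6 of 9 of its genes were at least 2-fold higher. Ube2c, its ubiquitin-conjugating enzyme, had 713 UMIs (24.9-fold, 20.8 to 30.1), and its activators Cdc20 and Fzr1 were 14.2-fold (9.84 to 20.7) and 4.78-fold (3.97 to 5.74) higher. Of transcription factors of the cycle, Foxm1 had 83 against 27 UMIs (15.3-fold, 9.78 to 24.5) and the repressor E2f7 was 11.1-fold higher (8.20 to 15.1). E2f1 was at 1.79 (1.38 to 2.32) and E2f4 at 1.08, so the family was uneven, and Myc was at 0.615 (0.396 to 0.919).

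Inhibitors of the cycle were among the genes of these dividing cells. Cdkn1c (p57) had 2357 UMIs in 91.3% of members and was at 1.12 (1.07 to 1.17) of the level in the other BMSCs, and at 0.75 (0.717 to 0.785) of that in eBMSC-1. Cdkn1b (p27) was at 1.88 (1.6 to 2.19). Cdkn2c (p18) and Cdkn2d (p19Ink4d), which inhibit the partners of D cyclins, were 20-fold (13.6 to 30.2) and 5.94-fold (4.81 to 7.33) higher. Cdkn1a (p21) was at 0.454 (0.338 to 0.599) against the other BMSCs but at 1.70 (1.196 to 2.386) against eBMSC-1. Its direction thus depended on the comparison cells.

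Of DNA damage and p53 genes, 7 of 13 were at least 2-fold higher and 2 lower. The histone H2afx, which marks broken DNA once phosphorylated, was 7.99-fold (6.66 to 9.59) higher. Trp53 itself was at 1.08 (0.835 to 1.37) and its target Mdm2 at 0.951 (0.663 to 1.33). Components of chromatin and microtubules were higher in 19 of 20 cases (median 3.62). Tubulin Tubb5 was 3.51-fold (3.27 to 3.78) and Tuba1b 4.53-fold (4.10 to 5.01) higher, and Stmn1, which takes microtubules apart, 8.14-fold (6.56 to 10.1).

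Growth lists showed no such difference. None of 79 ribosomal protein genes passed 2-fold in either direction (median 0.830), nor did any of 13 nucleolar and ribosome biogenesis genes (median 0.992), where nucleolin Ncl was at 1.07 (0.993 to 1.16) and nucleophosmin Npm1 at 0.857 (0.798 to 0.919). Of 15 glycolysis and hypoxia genes 1 passed 2-fold, aldolase Aldoa, downward, at 0.466 (0.403 to 0.536). Without the 24 cells with Schwann genes 2 did, the other being hexokinase Hk2 at 0.482 (0.235 to 0.894). Over all genes 4.88% were at least 2-fold lower, and 5.78% without the 24. Lactate dehydrogenase Ldha was at 0.818 (0.705 to 0.945) and Gapdh at 1.10 (0.944 to 1.27).

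Genes outside the cycle lists were named by size among those with at least 200 UMIs. Ednrb, the endothelin B receptor, had the largest ratio, 222 (93.9 to 691), but 217 of its 224 UMIs were in the 24 cells with Schwann genes. Without them it was at 7.43 (2.03 to 29.7). Next stood D17H6S56E-5 (17.3-fold, 14.6 to 20.6), Diap3, a formin that nucleates actin (14.4-fold, 10.8 to 19.5), and 2810417H13Rik, the PCNA-binding factor Pclaf, with 753 UMIs in 83.1% of members (11.6-fold, 10.1 to 13.2). Pclaf overlaps Trip4 on the other strand, and whether reads were counted by strand is not given in the sources used here. The other 8 of the 12 largest ratios ran from 5.50 to 8.998. They included Rangap1, which sets the direction of nuclear transport (6.72-fold, 5.69 to 7.94), the lamina protein Tmpo (5.51-fold, 4.96 to 6.12), Pmf1, a kinetochore protein (6.98-fold, 5.33 to 9.16), and Arl6ip1, a membrane-shaping protein of the endoplasmic reticulum, with 1070 UMIs (7.41-fold, 6.73 to 8.15). C330027C09Rik (Cip2a), Trim59, H1fx and Gm11223, a pseudogene whose reads may belong to its parent gene, made up the rest.

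Most of the 12 lowest ratios against the other BMSCs belonged to genes known from bone. Ibsp, bone sialoprotein, had 11 UMIs in the members and 28544 in the others (0.00191, 0.000955 to 0.00342), of which 22036 were in OLCs-2 and 4184 in OLCs-1. Osteopontin Spp1 had 8 against 4177 UMIs, and Mmp9, a protease best known from osteoclasts, 5 against 3073. Sp7, the osteoblast transcription factor, was at 0.0196 (0.00404 to 0.0576) from 3 UMIs, and the vitamin D receptor Vdr at 0.00701 (0.000177 to 0.0392) from 1 UMI. Car3 had 0 UMIs against 726, which puts it at 0.0205 of their level at most, on a floor of 3 counts. The rest included Ifitm5, Mmp13, Smpd3, Panx3 and Cd1d1. Against eBMSC-1 most of the 12 had too few UMIs to tell a difference. Ibsp had 11 against 14 UMIs (2.35, 0.966 to 5.58), Sp7 3 against 12 (0.748, 0.136 to 2.77) and Spp1 8 against 15 (1.596, 0.586 to 4.01). Mmp13 had 26 against 3 UMIs (25.9, 7.95 to 134), but the 26 lay in 4 members, so the ratio does not describe the members as a whole. Cd1d1 was lower than in eBMSC-1, with 2 against 59 UMIs (0.101, 0.012 to 0.383).

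What the members shared beyond the cycle was close to eBMSC-1. Against those 940 cells, 312 of 5705 genes (5.47%) were at least 2-fold higher and 105 (1.84%) lower. The mitosis lists had 61 of 62 genes higher and a summed ratio of 17.5 (16.9 to 18.2), and the S phase lists 27 of 42 and 2.58 (2.49 to 2.67). Without the 24 cells with Schwann genes the counts were 304 (5.4%) and 132 (2.35%) of 5625. The S phase lists then had 30 of 41 genes higher.

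The list of 16 eBMSC-1 genes includes Col3a1, Dcn, Gsn and Clec3b, which the study named for this population from these samples. The rest were added here with earlier results known, so the list is not independent evidence. None of the 16 passed 2-fold against the other BMSCs (median 1.11) or against eBMSC-1 (median 0.818). Type III collagen Col3a1 had 14362 UMIs in 98.7% of members (14704 CPM, 14465 to 14947), which was 1.15 (1.13 to 1.17) of the other BMSCs and 0.752 (0.738 to 0.766) of eBMSC-1. Periostin Postn was at 1.40 and 0.864, and the growth factor receptor Pdgfra at 1.13 (1.02 to 1.26) and 1.02 (0.914 to 1.14). Igfbp5, a binding protein of insulin-like growth factors, was the lowest of the list at 0.614 (0.585 to 0.644) and 0.524 (0.499 to 0.551). Taken over the list, the members were at 0.748 (0.738 to 0.758) of the summed level in eBMSC-1. Sparcl1, the eBMSC-2 gene, was at 1.65 (1.39 to 1.96) of the other BMSCs and 1.49 (1.24 to 1.79) of eBMSC-1.

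Of osteoblast genes, 12 of 16 were at least 2-fold lower against the other BMSCs (median 0.0549), but none of the 4 with enough UMIs passed 2-fold against eBMSC-1. Type I collagen Col1a1 had 28866 UMIs in 98.7% of members and was at 0.579 (0.572 to 0.586) and 0.715 (0.706 to 0.725). Runx2, the first transcription factor of the bone lineage, had 7 UMIs against 611 in the others, and 35 in eBMSC-1. The 26 UMIs of Mmp13, a collagenase of late osteoblasts, lay in 4 members.

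Niche factors, with which reticular stroma supports haematopoiesis, were lower in 4 of 9 cases against the other BMSCs (median 0.620) and in 1 of 9 against eBMSC-1. Cxcl12, the chemokine that holds stem cells in marrow, had 195 UMIs in 40.7% of members and was at 0.270 (0.233 to 0.312) and 0.751 (0.639 to 0.880). In OLCs-1 it reached 3638 CPM, against 199.6 CPM (172.6 to 229.7) in the members. Kit ligand Kitl was at 0.681 (0.518 to 0.882) and 1.19 (0.881 to 1.59). The leptin receptor Lepr, a marker of adult reticular cells, had 19 UMIs and was at 0.398 (0.235 to 0.635) and 0.482 (0.280 to 0.786), the latter being the 1 of 9. Without the 24 cells with Schwann genes it was 0 of 9.

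Of 18 genes of interstitial matrix only tenascin Tnc passed 2-fold, at 0.399 (0.358 to 0.444), and against eBMSC-1 it was higher, at 1.53 (1.35 to 1.74). Over all genes, 5.56% were at least 2-fold higher and 4.88% lower against the other BMSCs. Tendon genes had a summed ratio of 1.76 (1.63 to 1.90), led by tenomodulin Tnmd, with 232 UMIs in 13.0% of members (2.65, 2.25 to 3.11). Against eBMSC-1 Tnmd was at 1.64 (1.39 to 1.93). Of 9 chondrocyte genes none passed 2-fold, with Col2a1 at 0.554 (0.503 to 0.609) and aggrecan Acan at 1.85 (1.59 to 2.15). The chondrocyte UMIs were held by few cells: the median member had 2, 53 members had 0, and 4 members with at least 20 held 592 of 1166. Of 4 mural genes 2 were lower, Rgs5 at 0.113 and Abcc9 at 0.170, while Notch3 was at 1.03. Against eBMSC-1 the mural list summed to 0.943 (0.819 to 1.08). Of 3 joint lining genes Prg4 was lower, at 0.271, and against eBMSC-1 none of the 3 passed 2-fold.

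Among receptors for growth factors, 1 of 23 was at least 2-fold higher (Ednrb) and 5 lower, against none lower in the comparison with eBMSC-1. Without the 24 cells with Schwann genes 0 of 22 were higher and 4 lower. Pth1r, the parathyroid hormone receptor, was lowest at 0.182 (0.117 to 0.272), and at 0.796 (0.491 to 1.25) against eBMSC-1. Igf2r was at 1.001 (0.897 to 1.11), Tgfbr2 at 0.966 (0.862 to 1.08) and Fgfr1 at 0.929 (0.819 to 1.05). Of 21 growth factors and early response genes 2 were lower, Ctgf at 0.275 (0.197 to 0.376) and Cyr61 at 0.411 (0.337 to 0.497). Both were near 1 against eBMSC-1, at 0.974 and 1.02. Insulin-like growth factor Igf2 had 12817 UMIs in 92.6% of members, at 0.951 (0.934 to 0.970) and 0.723 (0.709 to 0.737). Of 16 stress and dissociation genes 2 were lower, Fosb at 0.346 and Btg2 at 0.366. Without the 24 cells with Schwann genes, which held more of this list, 5 of 16 were lower. Beside these counts, the shares over all genes were 5.56% higher and 4.88% lower, and 5.29% and 5.78% without the 24.

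Named by size against eBMSC-1 alone, the lowest were Kdm5b, a demethylase of histone H3, with 31 against 311 UMIs (0.298, 0.199 to 0.432), Igdcc4 (0.299), the flavin monooxygenase Fmo1 (0.315), Pcmtd2 (0.337), Dtx3 (0.351) and Pdk2, a kinase that restrains pyruvate dehydrogenase (0.364). The highest were again Ednrb, Diap3, D17H6S56E-5, 2810417H13Rik, Trim59 and Arl6ip1.

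With the cell cycle lists left out, each member was compared with the mean profiles of eBMSC-1, eBMSC-2, OLCs-1, OLCs-2 and the listed chondrocytes over 2766 variable genes. The nearest was eBMSC-1 for 216 of 231 members (93.5%, 89.5 to 96.3%), eBMSC-2 for 12, OLCs-1 for 3, and OLCs-2 or chondrocytes for 0, where a count of 0 allows up to 1.58%. The median correlation with eBMSC-1 was 0.586, against 0.41 for eBMSC-2, 0.293 for OLCs-1, 0.253 for chondrocytes and 0.192 for OLCs-2. Cells of known class that were held out of the means went back to it in 96.2% of eBMSC-1, all 149 of eBMSC-2, 90.1% of OLCs-1, 98.0% of OLCs-2 and 97.3% of chondrocytes. These classes were made from the expression of the same cells, so their return was largely fixed beforehand and is no independent check of the rule. The rule can only choose among the profiles offered. The 207 members without Schwann genes had a median correlation of 0.595 with eBMSC-1, and eBMSC-1 cells themselves 0.599. These 2 values are not a like comparison. The 207 were deeper (median 4392 against 2927 UMIs), and eBMSC-1 cells were part of the mean they were compared with. The 24 with Schwann genes were put nearest eBMSC-1 in 22 cases, but with a median correlation of 0.248.

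**Figure D3:**
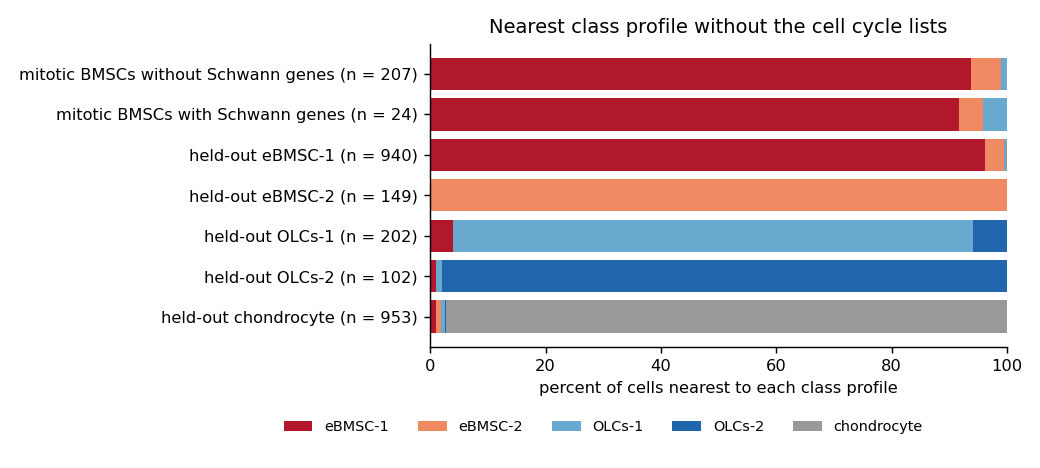
Bars give the percent of cells (horizontal axis) whose profile over 2766 variable genes without the cell cycle lists was nearest each of 5 class means, for the 207 members without and the 24 with Schwann genes and for held-out cells of each class. The colours stand for the nearest class. eBMSC-1 takes 93.7% and 91.7% of the member bars, and each held-out class goes back to itself in at least 90.1% of cells.

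Members also differed among themselves along the cycle. At 1000 UMIs per cell, 160 of 227 (70.5%, 64.1 to 76.3%) held at least 3 UMIs of both the mitosis and the S phase genes, 51 (22.5%) of mitosis genes alone, 6 (2.64%) of S phase genes alone and 10 (4.41%) of neither. In the other BMSCs, S phase genes alone were the commoner state, in 300 of 1392 cells (21.6%), against 91 (6.54%) with both and 76 (5.46%) with mitosis genes alone. Cells at this limit for S phase genes alone thus lay for the most part outside the cluster, which the study named mitotic. The other BMSCs as a class held the S phase lists at 2203 CPM. A count of 3 UMIs in 1000 is near that level, so it does not place a cell in S phase.

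The 207 members without Schwann genes were split into 3 groups of 69 by their mitosis UMIs per 1000 UMIs, which ran from 1.49 to 15.4, from 15.5 to 25.3 and from 25.4 to 40. Median depth was 4051, 4442 and 4614 UMIs. The split used the mitosis genes, so only other genes are read from it. The 3 S phase lists stood at 9290 CPM (8935 to 9655) in the group with the least mitosis UMIs, 5507 (5252 to 5771) in the middle and 4278 (4054 to 4512) in the group with the most. Ccne1 and Ccne2, the cyclins of the G1/S transition, went from 148 to 104 to 31.4 CPM and from 119 to 47.3 to 9.42 CPM. The licensing factor Cdt1, which is destroyed once S phase starts, went from 137 (96.8 to 188) to 44.2 to 22.0 CPM (8.84 to 45.3), and Mcm6 from 385 (316 to 465) to 161 to 78.5 CPM (50.8 to 116). These genes were thus lower in each group than in the one before. Not all S phase genes were: Tk1 was highest in the middle group, at 176, 211 and 145 CPM.

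Other cycle genes that took no part in the split went the opposite way. Ccnb1 stood at 54.0 CPM (30.2 to 89.0), 293 and 594 CPM (512 to 685), Ube2c at 130, 757 and 1285 CPM, and Cdc20 at 25.2, 120 and 207 CPM. Ccna2 was spread less, at 389, 738 and 1159 CPM. Ccnd2 went down, from 428 (355 to 512) to 218 to 148 CPM (109 to 196). The main genes of the eBMSC-1 identity were nearly level over the 3 groups: the list stood at 29233, 30061 and 29781 CPM, Col3a1 at 15342, 15234 and 15184 CPM. The cycle inhibitor Cdkn1c stood at 2475, 2637 and 2494 CPM. Other lists of cell identity were not level. Osteoblast genes stood at 64274, 65626 and 55205 CPM, tendon genes at 1029, 1224 and 716 CPM and chondrocyte genes, held by few cells, at 579, 2448 and 609 CPM. Ribosomal protein genes stood at 56024, 52467 and 49158 CPM.

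**Figure D4:**
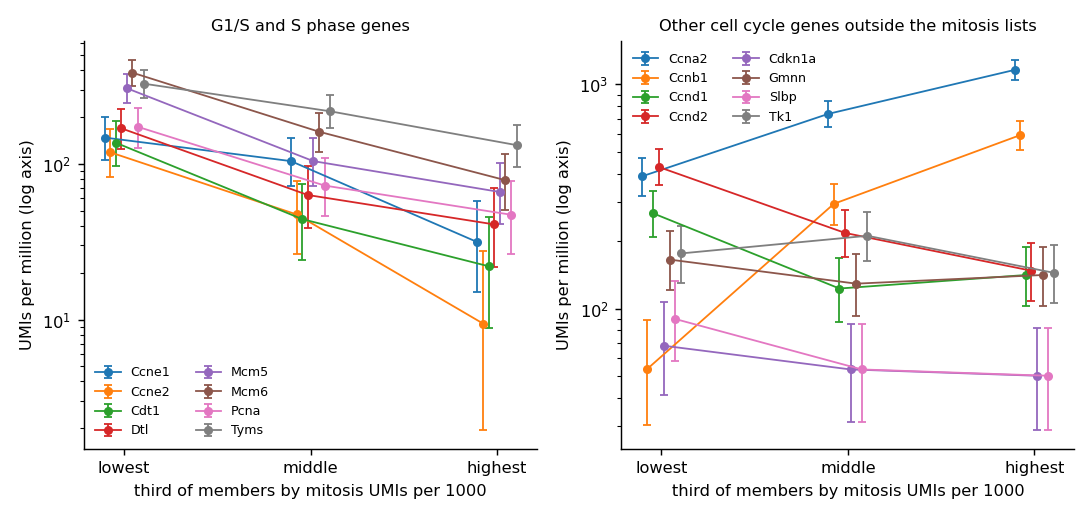
Lines join the level of each gene in CPM (vertical log axis) over the 3 groups of 69 members without Schwann genes, ordered by mitosis UMIs per 1000 (horizontal axis), and bars are exact 95% Poisson intervals. In the left panel the 8 G1/S and S phase genes drawn are highest in the first group, such as Mcm6 at 385, 161 and 78.5. In the right panel Ccna2 and Ccnb1 are highest in the last group, Tk1 in the middle group and Ccnd2 in the first.

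The 24 members with Schwann genes held 3 to 37 UMIs (median 15.5) of the 6 Schwann genes, among them Sox10, Erbb3, Foxd3 and Fabp7. Of the other 207 members, 202 held 0 and 5 held 1 or 2, and no other listed BMSC held more than 1. Schwann cells wrap the nerves that enter bone. Sox10, the transcription factor of the lineage, had 88 UMIs in 23 of the 24 and 0 in the others, and Foxd3 45 and 0. Both genes took part in the choice of the 24, so these counts describe that choice. Ednrb, which took no part in it, had 217 UMIs in all 24 cells and 7 in the others. Other genes with large ratios were the adhesion protein Cadm4 (82 against 1 UMI), Mal (46 against 2), Sostdc1 (45 against 3) and Gatm (49 against 6). The nerve growth factor receptor Ngfr (55 against 28, 28.3-fold) was picked from further down, below Alcam, Ptprz1, Mcam and Sema3b.

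Several stromal genes were at 0 or at a lower level in these 24 cells. Pdgfra, decorin Dcn and lumican Lum had 0 UMIs in them, where at the level of the other members 29.2 UMIs of Pdgfra and 59.3 of Dcn would be held. Col3a1 had 434 UMIs in 22 of the 24 cells and Col1a1 731 in 21. Summed over their list, eBMSC-1 genes took up 13221 CPM (12341 to 14147), and 29712 CPM (29359 to 30067) in the remaining 207. At least 3 UMIs of that list were found in 23 of the 24. The stromal markers were thus split, with Col3a1 and Col1a1 present and others at 0. Of the 16 eBMSC-1 genes, 8 had no UMI in the 24, Pdgfra, Dcn and Lum among them. In the 207 none of the 16 was at 0, though these held 913349 UMIs in all against 63384 in the 24. Col3a1 made up 434 of the 838 UMIs of the list in the 24.

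Mitosis genes were also lower in most of them. Of the 24, 1 held no mitosis UMI, the median was 4, and 15 (62.5%) held 3 or more, against 45.7% of the other BMSCs. Among them 17 had at most 13 mitosis UMIs and 7 had 34 to 122, while the other 207 members had 5 to 258 with a median of 84. All 14 members with fewer than 5 mitosis UMIs were among the 24. At 1000 UMIs per cell, 10 of 23 (43.5%, 23.2 to 65.5%) kept 3 or more mitosis UMIs, against 201 of 204 (98.5%, 95.8 to 99.7%). The 24 were shallower, with a median of 2574 UMIs against 4392, and held more mitochondrial UMIs (66973 against 38835 CPM) and more of the stress and dissociation list (9277 against 3822 CPM). The part of these differences in the result was not tested. In the whole library 33 barcodes held at least 3 UMIs of the 6 genes, of which the remaining 9 are in none of the lists used here.

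**Figure D5:**
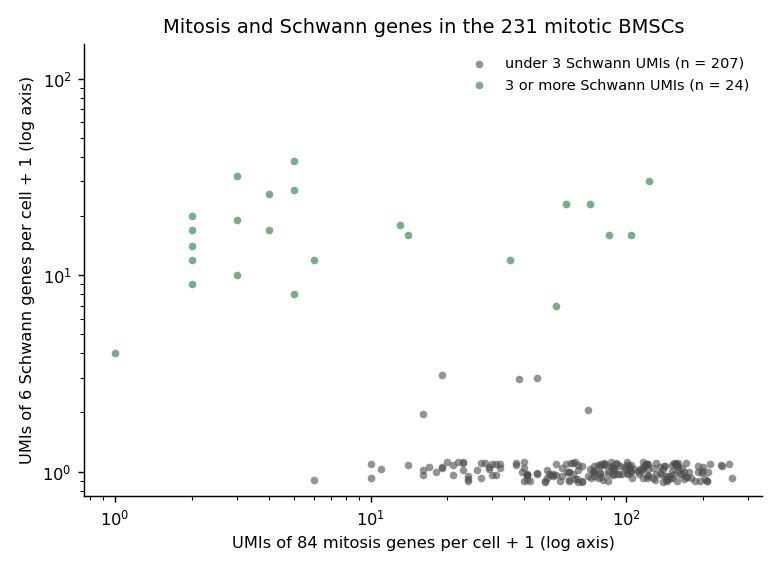
Each point is 1 of the 231 members, placed by its UMIs of 84 mitosis genes plus 1 (horizontal log axis) and of 6 Schwann genes plus 1 (vertical log axis, with a small random spread for the grey points). The 24 green points hold 3 to 37 Schwann UMIs, and 17 of them have at most 13 mitosis UMIs. Of the 207 grey points, 202 lie at 0 Schwann UMIs.

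Markers of other cell types in the digest differed in how often they were found. Endothelial genes (7) had 8 UMIs over all 231 members and erythroid genes (8) had 18. Haematopoietic genes (11) had 607, of which 602 were Cd34, a surface sialomucin of progenitors that was as high in the other BMSCs (1.02, 0.931 to 1.11). The osteoclast list had 168 UMIs, of which 160 were Ctsk, with 3 or more in 18 members (7.79%, against 6.28% of eBMSC-1). The mural list had 267 UMIs, with 3 or more in 27 members (11.7%, against 9.26% of eBMSC-1). Genes of muscle progenitors were in 5 members, which held 41 UMIs, all of those found in the cluster. Myod1, which sets muscle fate, had 26 UMIs in 4 members and 0 in the other BMSCs.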

How the data were processed

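The authors deposited, per library, the UMI count of each gene in each cell barcode as whole numbers without normalization. The submitters' processing notes name bcl2fastq 2.19.1.403, UMI-tools 1.0.1, STAR 2.7.1a, Subread featureCounts 1.6.4 and build mm10. The wild-type library was used (22708005 UMIs, 21180 genes). The Bmx-CreER Wls library was not used here, as the cell list does not cover it. Cell classes are the study's own. The copy of its list holds all 1649 E18.5 BMSCs but only part of the chondrocytes (953), HSPCs (185), ECs (202), mural cells (45) and erythroid cells (65).

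UMIs were summed over the cells of a class and divided by the class total (CPM). Ratios are of CPM, with no pseudocount. List counts, medians and counts over all genes use genes with at least 100 UMIs over the cells compared, while single named genes are also given below that, with their UMIs or interval. A count of 0 was set to a floor of 3 counts. Shares have Clopper-Pearson, levels Poisson and ratios conditional binomial 95% intervals. Shares of cells were also taken after drawing each cell down to 1000 UMIs. For the nearest profile, counts were scaled to 10000 per cell and log-transformed in scanpy 1.11.5, and cells were assigned by Pearson correlation without 207 cell cycle genes. Doublets were kept, since Scrublet's threshold did not work. TMM factors came from edgeR 4.0.16 in R 4.3.3. Other steps used Python 3.11.15, numpy 2.4.6, scipy 1.17.1, pandas 2.3.3 and matplotlib 3.10.9, and the ratios and the drawing down were checked on simulated data. Gene positions are from the GENCODE annotation of GRCm38 and promoters from RefSeq on GRCm38.p6.

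Cells of 1 library are not replicates, so no test was made and precision is that of counting alone. The members, the 34 gene lists and the motifs were chosen with earlier results of these data known. Genes were named by rule: the 5 markers, in each list the 4 genes with most UMIs and those past 2-fold with the largest and smallest ratio, and outside the cell cycle lists the 12 largest and 12 smallest ratios against the other BMSCs and the 6 largest and 6 smallest against eBMSC-1, with at least 200 UMIs. Some genes that the rule names are not reported here. Other genes named were picked from the lists after their values were seen. The limit of 3 Schwann UMIs was set after seeing the data.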

Additional observations from a re-analysis of the deposited data

How the results depend on the processing

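No paired analysis was possible because only 1 wild-type library holds the listed cells and no result comes from a test. Of 65 alternatives computed, 45 stayed within the counting error or, for counts of genes, within 1.5 times of the value reported, 20 moved further and 0 reversed. The share of BMSCs that are mitotic stayed between 12.7% and 14.1%, and the share nearest eBMSC-1 between 90.8% and 94.2%. Leaving out the 24 members with Schwann genes, an alternative chosen after seeing the data, raised the share with any marker to 94.2%, the share with 3 or more mitosis UMIs to 98.5% and the mitosis ratio to 12.5. Drawing each cell down to 1000 UMIs gave 70.5% with any marker, a mitosis ratio of 14.2, an S phase ratio of 2.97 and 690 genes at least 2-fold lower. Drawing down to 500 UMIs gave 87.5% with 3 or more mitosis UMIs. The mitosis and S phase ratios were 17.5 and 2.58 against eBMSC-1 alone, with 105 genes lower. They were 12.5 and 2.85 with totals taken without the cell cycle lists, 11.6 and 2.66 with TMM factors, and 13.3 and 2.96 as means over cells. The mitosis ratio was 13.5 without the 5% highest Scrublet scores. A limit of 20 UMIs in place of 100 gave 842 genes higher and 1045 lower, since more genes were then compared. The other causes were not tested.

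Depth limits the low markers: Plk1, Cep55 and Nuf2 have 60 to 119 UMIs over all members, so that a missing UMI in a cell is no sign that the gene is off. Genes with a count of 0 are bounded by 3 counts, which is 3.07 CPM over all members and 47.3 CPM over the 24 cells. All values come from 1 library, so differences between embryos cannot be seen.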

Other observations

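With the 24 cells with Schwann genes left out, the 12 lowest ratios against eBMSC-1 also held Mxd4, a Myc-family repressor known from resting cells, with 94 UMIs over all members against 701 in eBMSC-1 (0.347 without the 24, 0.401 over all members). Impdh1, which makes guanine nucleotides, was at 0.353, and Hsd3b7, a sterol enzyme, at 0.385. Among the listed aBMSC, a population the study named for adult cells, 12 of the 15 cells with at least 1000 UMIs held 3 or more mitosis UMIs, and the 25 cells had a median of 21.8% mitochondrial UMIs against 4.02% in the mitotic BMSCs.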
